A study of Homo sapiens with 10 samples.

Results

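RNA of 37 genes of the nucleolus and of RNA polymerase I, which serve ribosome production, was compared in human embryonic stem cells and 4 derivatives. Ribosome production itself was not measured. The genes were listed by name for the known roles of their proteins, with earlier results of these data known. All 37 were found among the 22848 gene symbols that 4 deposited expression tables share. They comprised 7 abundant nucleolar proteins, 6 subunits and factors of RNA polymerase I, 4 proteins of box C/D and 4 of box H/ACA small nucleolar ribonucleoproteins (snoRNPs), 2 enzymes that modify ribosomal RNA bases, 9 assembly factors of the large and 5 of the small ribosomal subunit.

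Ribosomes are built in the nucleolus. RNA polymerase I transcribes a long precursor of the ribosomal RNAs, snoRNPs guide the 2'-O-methylation of its riboses and the conversion of uridines to pseudouridines, and assembly factors fold, cut and pack it with ribosomal proteins into the precursors of the small and the large subunit. Many genes of these steps are known targets of the transcription factor MYC, which with its partner MAX binds the E-box CACGTG, and embryonic stem cells are known for large nucleoli.

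The undifferentiated cells (hESC) were WA09, an established human embryonic stem cell line, kept on matrigel for 4 days at 50000 cells per cm2. Their medium held heregulin and activin A, each at 10 ng/mL, with FGF (8 ng/mL) and IGF-I (200 ng/mL). Definitive endoderm (DE) was made at the same density in 4 days with activin A (100 ng/mL) and FGF (8 ng/mL), without heregulin or IGF-I, and saw Wnt-3a (25 ng/mL) on the first day alone. For splanchnic mesoderm (MESO) the hESC medium was supplemented for 4 days with BMP-4 (100 ng/mL) and Wnt-3a (25 ng/mL). Neural progenitors (NPC) were seeded at 90000 cells per cm2 and grown for 6 days with heregulin (10 ng/mL), IGF-I (200 ng/mL), LDN (500 nM), which blocks BMP receptors, and SB431542, which blocks TGF-beta receptors. Pre-neural crest cells (NCSC), at that density and also for 6 days, received heregulin (10 ng/mL), IGF-I (200 ng/mL), FGF (8 ng/mL), SB431542 and BIO, which blocks the kinase GSK3. All came from 1 line, and day, density and factors differ together between hESC and the neural derivatives, so their parts cannot be told apart.

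Poly-A RNA was sequenced in 2 libraries per cell type (10 altogether). Nothing in the labels tells whether a pair came from separate cultures. The values used are FPKM, a measure of fragments scaled by transcript length and library depth, which sets genes of different length on 1 scale. Every table gives 1 FPKM for hESC and 1 for a derivative, which leaves the values below without an error between libraries, and the depth of the libraries is unknown. Tests across replicates are the authors' alone: a gene is said to have fallen or risen where the q-value in the authors' deposited table was below 0.05. A centred change is the derivative's log2(FPKM + 1) less the hESC value of the same table, less the median of this difference over symbols with a mean FPKM of at least 1. That median was 0.05 in DE, 0.08 in MESO, -0.26 in NPC and -0.22 in NCSC. In bulk RNA, fewer cells of a type and less RNA per cell cannot be told apart. All 4 comparisons share the 2 hESC libraries of the labels.

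The labelled identities were checked with marker lists. In DE 6 of 7 endoderm markers rose, in MESO 8 of 8 mesoderm markers and in NPC 6 of 7 neural progenitor markers, by the q-values of the authors' deposited tables. Of 8 hESC markers none fell in DE, 8 fell in MESO, 5 in NPC and 5 in NCSC, and 1 rose in NPC. Their summed level went from 2129 to 882 FPKM in DE and from 2157 to 242 FPKM in MESO. In NPC it went from 2428 to 748 FPKM and in NCSC from 2283 to 499 FPKM. In NCSC 3 of 8 neural crest and border markers rose, PAX3 to 18.6 FPKM, SNAI2 to 11.7 FPKM and MSX1 to 1.46 FPKM. TFAP2A stood at 0.0463 FPKM there, ZIC1 at 0.116 FPKM and FOXD3 at 0, so several defining crest markers were at or near 0. The summed level of this list went from 14.2 to 35.0 FPKM in NCSC, and in MESO, where 4 of the 8 rose, from 13.7 to 172 FPKM. In NPC 3 of the 8 rose as well, so the count does not set NCSC apart from NPC. The summed level in NPC went from 14.9 to 8.75 FPKM. In MESO 5 of 7 trophoblast and amnion markers and 4 of 5 fibroblast markers also rose, and their summed levels were 494 and 1018 FPKM against 19.6 and 93.0 FPKM in hESC. In NCSC 2 of the 5 fibroblast markers rose, and their summed level went from 90.4 to 332 FPKM. Of 6 neuron markers 3 rose and 2 fell in NPC, where their summed level went from 141 to 85.9 FPKM. In NCSC 2 of these 6 rose, and in MESO 1 rose and 1 fell. The part of such cells in the results below was not tested.

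The promoters of the 37 genes were examined for the MYC site because the genes are set beside MYC levels below. RefSeq promoters of GRCh38.p14, 250 bases before to 50 after each transcription start, were given for 31 of the 37 genes. NOP58, BOP1, RRP12, RRP1B, POLR1E and NOLC1 had no entry. The E-box CACGTG, which reads the same on both strands, was found in 14 of the 31 genes (45.2%). It was found in 8.79% of all 27195 genes with a promoter entry, and in 13.6% of the 5002 of them with a mean FPKM of at least 10 in every table. The variant CACGCG, searched on both strands, occurred in 11 of the 31 (35.5%) against 13.5% of all genes and 23.7% of the expressed ones. The palindromic ZBTB33 (Kaiso) motif was in none of the 31, against 0.507% of all genes and 1.42% of the expressed ones. The NRF1 motif was in 2 of the 31 (6.45%) against 1.52% and 3.26%. Neither E-box form lies within the other or within these motifs. The 14 genes held 15 E-boxes, of which 14 lay between 64 bases before and 36 after a start. These matches describe letters in a window and not bound sites.

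Some of these E-boxes, 1 each for 8 genes, are shown with 12 bases on either side, on the strand of the gene, 5' to 3', with the E-box in capitals. They were picked to set genes whose RNA was far lower in NPC (RRP9, DDX21, MYBBP1A, LYAR, GNL3) beside genes whose RNA differed less (FBL, NAT10) and 1 between them (PES1).
RRP9: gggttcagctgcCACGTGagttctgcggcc
DDX21: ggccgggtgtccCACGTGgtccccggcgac
MYBBP1A: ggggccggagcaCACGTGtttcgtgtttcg
LYAR: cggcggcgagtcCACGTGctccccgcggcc
GNL3: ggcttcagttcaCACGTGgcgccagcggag
FBL: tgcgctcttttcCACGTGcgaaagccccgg
NAT10: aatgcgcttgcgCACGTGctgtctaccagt
PES1: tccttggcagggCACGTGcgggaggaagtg
The windows lie at RRP9 (chr3:51941892-51941921, minus strand, 5 bases before the start), DDX21 (chr10:68956604-68956633, plus strand, 31 bases before the start), MYBBP1A (chr17:4555340-4555369, minus strand, 28 bases after the start), LYAR (chr4:4290068-4290097, minus strand, 64 bases before the start), GNL3 (chr3:52686026-52686055, plus strand, 7 bases after the start), FBL (chr19:39846356-39846385, minus strand, 7 bases after the start), NAT10 (chr11:34105602-34105631, plus strand, 15 bases before the start), PES1 (chr22:30591880-30591909, minus strand, 14 bases after the start), each distance being that of the first base of the E-box.

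The 250 bases before the start are shown whole for 3 genes: UTP20 (chr12:101279855-101280104, plus strand), with 1 E-box close to the start, NOP10 (chr15:34343137-34343386, minus strand), the member with 2 E-boxes, and NCL (chr2:231464485-231464734, minus strand), whose promoter holds none and whose RNA was the most abundant of the 37 in hESC.
UTP20: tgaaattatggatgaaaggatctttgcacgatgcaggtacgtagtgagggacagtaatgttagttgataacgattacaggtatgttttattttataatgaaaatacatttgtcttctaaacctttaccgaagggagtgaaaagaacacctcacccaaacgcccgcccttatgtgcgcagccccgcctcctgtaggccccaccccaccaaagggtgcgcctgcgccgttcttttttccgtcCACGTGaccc
NOP10: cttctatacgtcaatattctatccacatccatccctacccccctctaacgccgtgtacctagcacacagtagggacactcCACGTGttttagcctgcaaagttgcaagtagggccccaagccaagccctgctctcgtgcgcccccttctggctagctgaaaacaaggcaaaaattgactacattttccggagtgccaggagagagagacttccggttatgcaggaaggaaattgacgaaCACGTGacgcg
NCL: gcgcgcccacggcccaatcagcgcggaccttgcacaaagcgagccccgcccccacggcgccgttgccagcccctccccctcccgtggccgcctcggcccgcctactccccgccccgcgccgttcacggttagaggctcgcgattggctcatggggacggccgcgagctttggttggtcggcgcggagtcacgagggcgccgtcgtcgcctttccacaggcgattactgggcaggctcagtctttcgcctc
The G and C content of these stretches was 47.6% for UTP20, 52% for NOP10 and 72% for NCL. The median centred change of the 14 genes with an E-box was -1.36 in NPC and -0.85 in NCSC, and that of the 17 without was -1.28 and -0.90. In DE the medians were -0.59 and -0.42, and in MESO -0.78 and -0.54.

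In hESC all 37 genes were expressed. NCL, encoding nucleolin, was the highest, at 541, 593, 681 and 634 FPKM in the tables of DE, MESO, NPC and NCSC. The lowest was UTP20, a scaffold of the small-subunit precursor, at 9.10, 11.5, 14.3 and 12.7 FPKM. The hESC value of a gene was not the same in the 4 tables. Apart from NOP2, whose rows differ as described below, the highest hESC value of a member was 1.09 to 1.70 times its lowest, with a median of 1.33. The hESC value was lowest in the DE table for 31 of the 37 genes and highest in the NPC table for 35. Members' hESC values in the DE table minus those in the NPC table had a median of -0.41 on the log2 scale, while the median over all symbols was -0.13. Each change below therefore uses hESC of its own table.

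By their sums and medians the genes were lower in every derivative, most in NPC and then in NCSC. DE lay above MESO, which turned round with hESC values of the other 3 tables (medians of -0.78 and -0.63). The summed FPKM of the 37 genes went from 2784 in hESC to 2044 in DE, from 3075 to 2069 in MESO, from 3510.4 to 1307 in NPC and from 3228 to 1749 in NCSC. The median centred change was -0.51 in DE, -0.69 in MESO, -1.41 in NPC and -0.91 in NCSC. Over all symbols with a mean FPKM of at least 10 the same medians were 0.02, 0.01, -0.11 and -0.06. In DE 1 gene stood at no more than 1/2 of its hESC FPKM, in MESO 3, in NPC 31 and in NCSC 22. No gene stood at or below 1/4 in DE or MESO, against 11 in NPC and 2 in NCSC. These ratios are not centred, and the share of all symbols at such ratios was not counted. The medians taken off in centring were 0.05 in DE, 0.08 in MESO, -0.26 in NPC and -0.22 in NCSC. The plot of centred changes by gene shows the order for each gene.

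**Figure D1:**
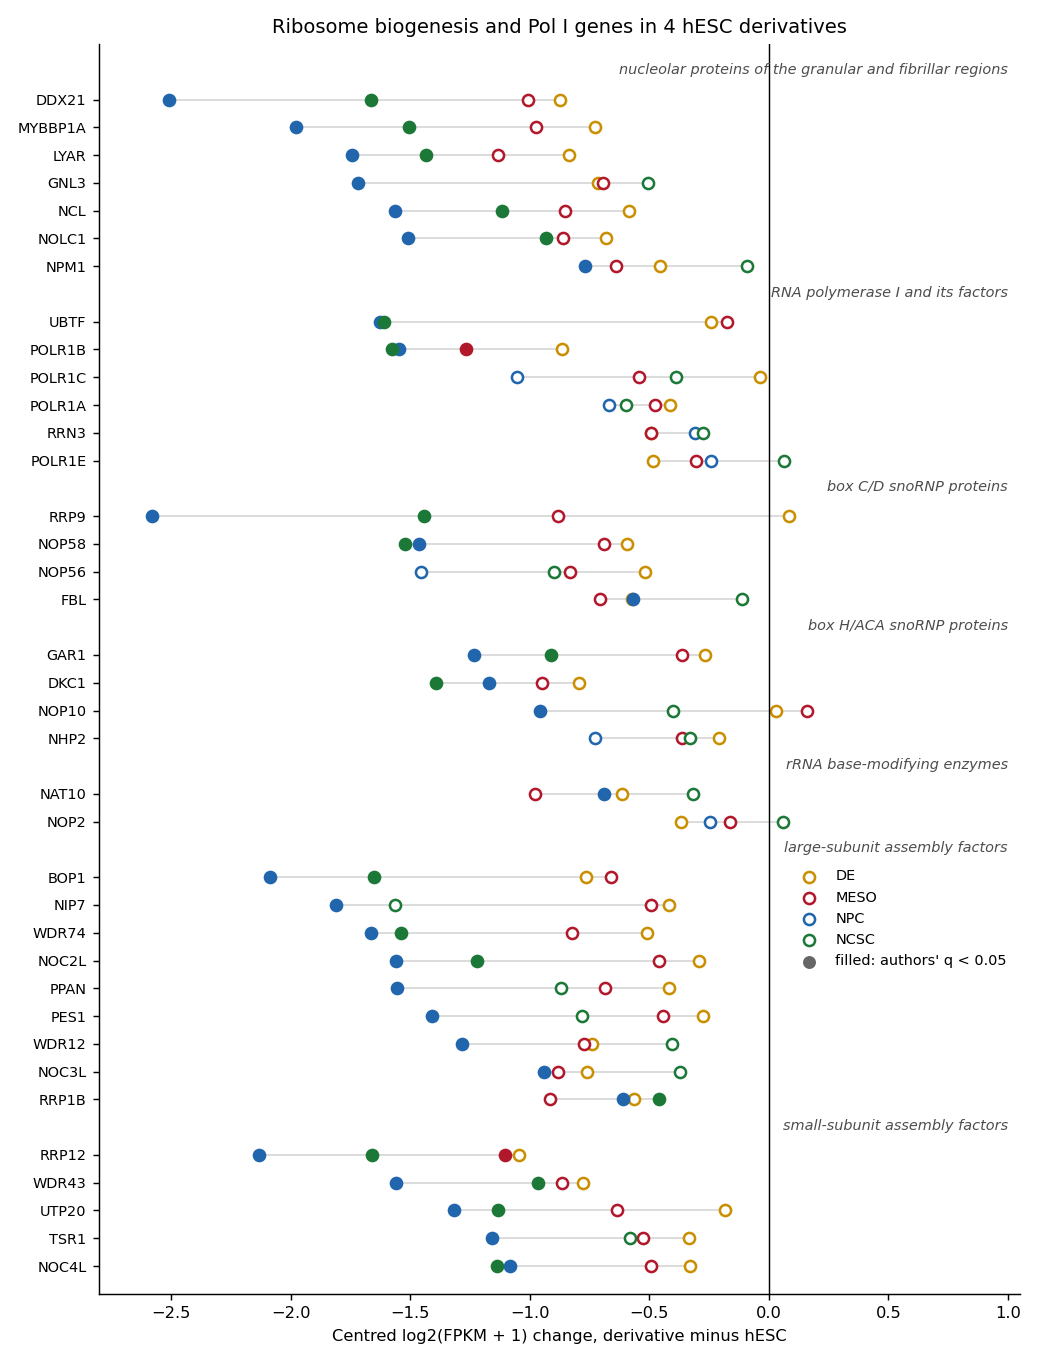
Centred change in log2(FPKM + 1) of each of the 37 genes (horizontal axis) in DE, MESO, NPC and NCSC against hESC of the same table, grouped by role, with 1 point per derivative and filled points marking a q-value under 0.05 from the authors. The NPC points lie farthest to the left for 27 genes, and no filled point lies to the right of 0.

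In DE none of the 37 genes rose or fell by the authors' deposited table. Lower RNAs made up 0.0203% of the 14789 loci tested there and higher RNAs 0.406%. Among loci with a mean FPKM of at least 10, 0.0139% fell. At an unadjusted p-value below 0.05 also, 0 of the 37 were lower, against 1.37% of loci. The lowest centred changes in DE were those of RRP12 (-1.04), DDX21 (-0.87) and POLR1B (-0.86), and 35 of 37 were below 0. RRP9, a box C/D protein, went from 26.5 to 29.2 FPKM and NOP10, a box H/ACA protein, from 175 to 185 FPKM. The authors' test called few genes of any kind in this table, so the count says little of these genes.

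In MESO 2 of the 37 genes fell, 5.41%, which is near the 5.37% of the 14796 loci tested that fell, or 3.37% of those with a mean FPKM of at least 10. They were POLR1B, the second largest subunit of RNA polymerase I, and RRP12, a small-subunit assembly and export factor. At an unadjusted p-value below 0.05, 9 of the 37 (24.3%) were lower, against 10% of loci. No gene of the 37 rose, while 9.05% of loci did. Of the centred changes 36 of 37 were below 0, and the exception was NOP10, at 164 FPKM in hESC and 194 FPKM in MESO.

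In NPC 30 of the 37 genes (81.1%) fell and none rose, against 24.8% of the 14863 loci tested that fell and 12% that rose. Among loci with a mean FPKM of at least 10, 29% fell. At an unadjusted p-value below 0.05, 33 of the 37 were lower, against 30.6% of loci. All 37 genes had a lower FPKM in NPC than in hESC. The 7 that did not pass were POLR1A, POLR1C, POLR1E, RRN3, NOP56, NHP2 and NOP2, of which 4 belong to RNA polymerase I. POLR1C and NOP56 had deposited scores that were small beside their FPKM ratios, so their q-values say little of their change.

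In NCSC 19 of the 37 genes (51.4%) fell and none rose, against 19.7% of the 14901 loci tested that fell and 10.2% that rose. Among loci with a mean FPKM of at least 10, 21.5% fell. At an unadjusted p-value below 0.05, 26 of the 37 were lower, against 26.8% of loci. The centred change was lower in NPC than in NCSC for 33 of the 37 genes. POLR1B, NOP58, DKC1 and NOC4L had the lower value in NCSC. The authors' tables hold no test between derivatives, and none could be made from 1 value each.

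**Figure D2:**
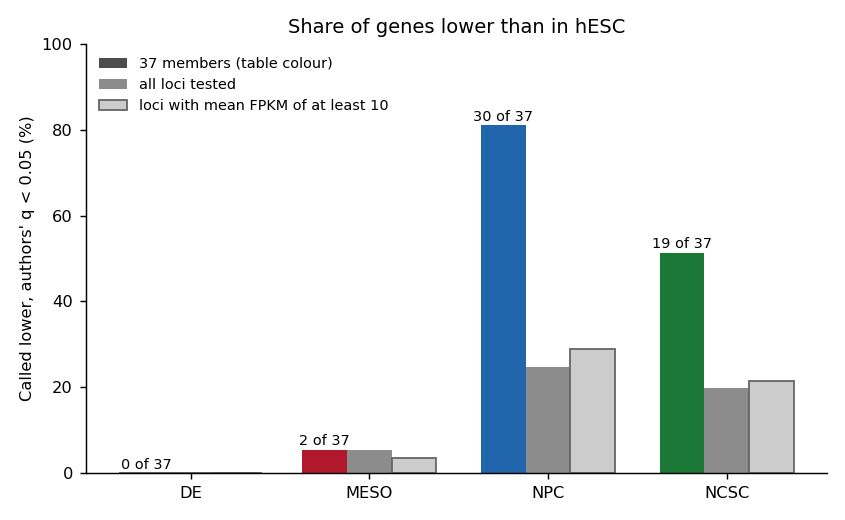
Percent of genes that fell by the authors' q-value in each derivative, for the 37 genes, for all loci tested in the same table (grey) and for loci with a mean FPKM of at least 10 (light grey). The bars for the 37 genes stand at 81.1% in NPC and 51.4% in NCSC, against 24.8% and 19.7% of loci, and in MESO at 5.41% against 5.37%.

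The abundant nucleolar proteins fell in NPC, 7 of 7, and 5 of 7 fell in NCSC, against 24.8% and 19.7% of loci. NCL, which binds the ribosomal RNA precursor, stood at 374 FPKM in DE, 346 in MESO, 191 in NPC and 250.4 in NCSC, below each hESC value given above. It fell 3.56-fold in NPC (q = 0.000323) and 2.53-fold in NCSC (q = 0.000455) by the authors' deposited tables, and its locus in the NPC table is chr2:232316390-232329293 in hg19. DDX21, an RNA helicase that couples RNA polymerase I transcription with processing, stood at 106, 124, 149 and 137 FPKM in hESC of the DE, MESO, NPC and NCSC tables. In the derivatives it stood at 59.7, 64.4, 20.9 and 36.5 FPKM. DDX21 was thus 7.11-fold lower in NPC and 3.76-fold lower in NCSC, and the authors' q-values for MESO and NPC were 0.0949 and 0.000323.

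MYBBP1A, a nucleolar MYB-binding protein, went from 35.0 to 6.61 FPKM in NPC and from 32.7 to 9.19 FPKM in NCSC. LYAR, a nucleolar zinc finger protein abundant in stem cells, went from 56.0 to 13.2 FPKM in NPC and from 52.3 to 16.0 FPKM in NCSC. NOLC1, a chaperone of snoRNPs, went from 87.5 to 24.9 and from 81.8 to 36.3 FPKM. All 3 fell in both. In DE and MESO their levels lay between those of hESC and NPC, at 17.3 and 16.8 FPKM for MYBBP1A, 24.0 and 23.1 FPKM for LYAR and 41.6 and 43.6 FPKM for NOLC1.

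The nucleolar proteins NPM1 and GNL3 passed in NPC and not in NCSC. NPM1, the main protein of the granular region, went from 597 to 292 FPKM in NPC (q = 0.00133) and from 490.0 to 395 FPKM in NCSC (q = 0.439) in the authors' deposited tables. NPM1 has processed copies elsewhere in the genome, and the NCSC table holds a further NPM1 row at 66.5 FPKM in hESC and 34.6 FPKM in NCSC, so its value there is uncertain. GNL3, or nucleostemin, a GTP-binding protein named for its abundance in stem cells, went from 113 to 27.8 FPKM in NPC (q = 0.00613) and from 104 to 62.7 FPKM in NCSC (q = 0.392). The difference between these changes was not tested. In the NCSC table the deposited score for GNL3 was -0.0933, small beside its FPKM ratio.

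Of the 6 genes of RNA polymerase I and its factors, POLR1B and UBTF fell in both neural derivatives and the other 4 passed in no table. Of all loci tested 24.8% fell in NPC and 19.7% in NCSC, so 2 of 6 is not far above these shares. At an unadjusted p-value below 0.05, 4 of the 6 were lower in NPC, against 30.6% of loci. POLR1B, which forms part of the catalytic centre, stood at 11.4, 14.5, 17.0 and 15.9 FPKM in hESC of the DE, MESO, NPC and NCSC tables and at 6.04, 5.82, 4.13 and 3.86 FPKM in the derivatives. All derivative values lie below all hESC values, and the authors' q-values were 0.999, 0.0279, 0.000323 and 0.000455. UBTF, which binds along ribosomal DNA and keeps its genes open, stood at 23.6, 26.9, 32.3 and 28.9 FPKM in hESC. In DE and MESO it stood at 20.6 and 25.2 FPKM and in NPC and NCSC at 7.99 and 7.41 FPKM. UBTF thus lay near its hESC level in DE and MESO, with centred changes of -0.24 and -0.17, and far below it in NPC and NCSC, at -1.62 and -1.61.

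The largest subunit, POLR1A, stood at 14.4, 13.2, 14.8 and 17.4 FPKM in hESC and at 11.0, 9.78, 7.30 and 9.42 FPKM in DE, MESO, NPC and NCSC. Its lowest q-value in the authors' deposited tables was 0.0889, in NPC. RRN3, the initiation factor TIF-IA that makes the polymerase competent to start, stood at 20.1, 20.2, 23.0 and 21.6 FPKM in hESC and at 14.5, 14.9, 15.1 and 15.1 FPKM in the derivatives. The 4 derivative levels of RRN3 were nearly the same, and pseudogenes close to RRN3 make its level uncertain. POLR1C, a subunit shared with RNA polymerase III, went from 23.7 to 8.94 FPKM in NPC with a q-value of 0.354. These FPKM of POLR1C are 2.66-fold lower in NPC, yet the deposited score was -0.876. The score of POLR1C was small beside the FPKM ratio in all 4 tables, and the reason was not tested. POLR1E, a subunit that helps start and extend transcripts, stood at 10.6, 13.6, 13.1 and 16.0 FPKM in the derivatives, against 14.7, 16.1, 19.0 and 18.0 FPKM in hESC. Its centred change in NCSC, 0.06, was -0.16 without centring, and that of POLR1C in DE, -0.04, was 0.01 without centring. The plot of polymerase genes shows these levels.

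**Figure D3:**
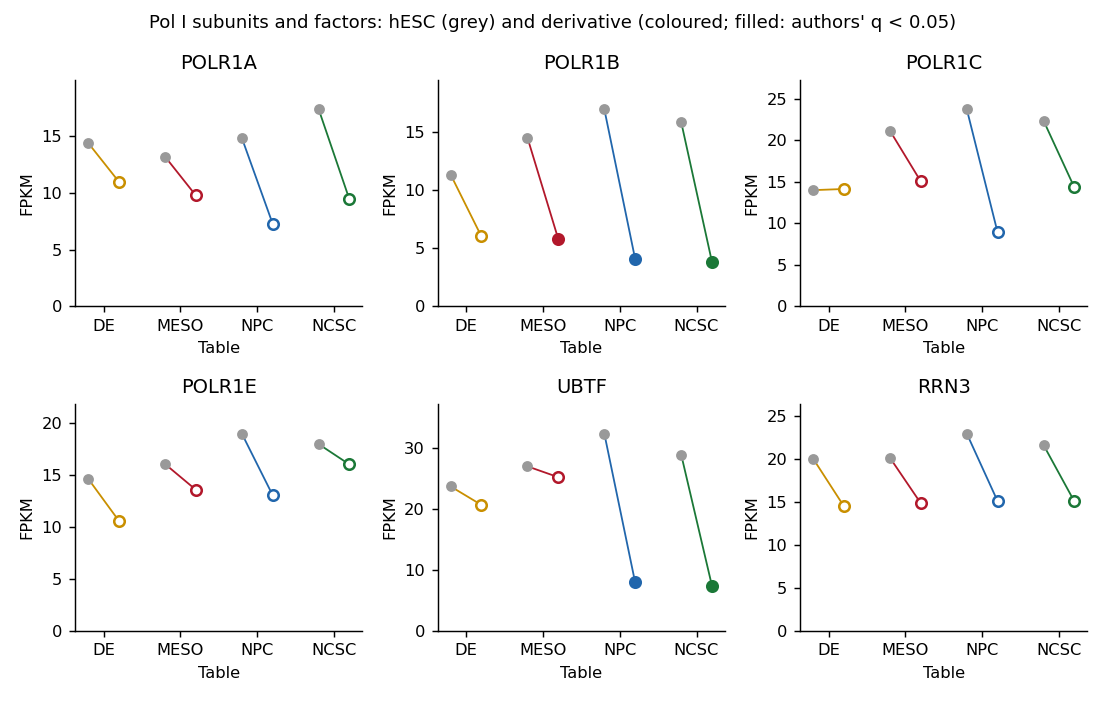
FPKM of the 6 RNA polymerase I genes in hESC and the derivative of each table, with 1 value per cell type and table and no error. POLR1B and UBTF drop to between 3.86 and 7.99 FPKM in NPC and NCSC, while RRN3 ends between 14.5 and 15.1 FPKM in all 4 derivatives.

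The box C/D snoRNP proteins, which carry out 2'-O-methylation of ribosomal RNA, fell in NPC for 3 of 4 and in NCSC for 2 of 4. The shares of loci that fell were 24.8% and 19.7%. RRP9, which binds the U3 snoRNA needed to cut the precursor, had the lowest centred change of the 37 in NPC, -2.58. It stood at 26.5, 35.0, 38.6 and 36.3 FPKM in hESC and at 29.2, 19.7, 4.53 and 10.8 FPKM in DE, MESO, NPC and NCSC. RRP9 was thus 8.53-fold lower in NPC and 3.36-fold lower in NCSC. Its centred change in DE was 0.08 and became -0.32 with hESC values of the other 3 tables. NOP58, a core protein, stood at 31.4 and 32.4 FPKM in NPC and NCSC against 106 and 110.5 FPKM in hESC, and fell in both.

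FBL, the methyltransferase fibrillarin, stood at 287, 294, 317 and 300.0 FPKM in hESC and at 200.0, 189.9, 178 and 239 FPKM in DE, MESO, NPC and NCSC. It fell in NPC (q = 0.00894), by 1.78-fold. In the MESO table FBL shares its row with DYRK1B. NOP56, the partner of NOP58 in the core, stood at 103, 124, 141 and 132 FPKM in hESC and at 74.2, 73.2, 42.0 and 60.4 FPKM in the derivatives. These FPKM of NOP56 are 3.35-fold lower in NPC, yet the deposited score was -0.256 and the q-value 0.271 in the authors' deposited table. The score of NOP56 was small beside the FPKM ratio in all 4 tables, and the reason was not tested.

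The box H/ACA proteins, which form the pseudouridylation complex, fell in NPC for 3 of 4 and in NCSC for 2 of 4. The shares of loci that fell were again 24.8% and 19.7%. DKC1, the pseudouridine synthase dyskerin, stood at 71.4, 70.6, 82.7 and 77.1 FPKM in hESC and at 42.4, 38.2, 30.0 and 24.6 FPKM in DE, MESO, NPC and NCSC. It was among the 4 genes with their lowest centred change in NCSC (-1.39). GAR1, which aids substrate release, went from 36.5 to 12.3 FPKM in NPC and from 36.1 to 16.0 FPKM in NCSC, and fell in both. NOP10, the smallest core protein, stood at 175, 164, 185 and 174 FPKM in hESC and at 185, 194, 79.0 and 113 FPKM in the derivatives. NOP10 fell in NPC (q = 0.000323) and had a q-value of 0.114 in NCSC, by the authors' deposited tables. Its centred change of 0.03 in DE became -0.03 under quantile normalization. NHP2 went from 92.1 to 45.9 FPKM in NPC (q = 0.0759) and from 87.3 to 59.4 FPKM in NCSC (q = 0.365).

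Of the enzymes that modify bases, NAT10, which acetylates cytidines of the small-subunit RNA, fell in NPC. It stood at 24.7, 29.3, 33.6 and 31.7 FPKM in hESC and at 16.5, 15.3, 16.9 and 21.5 FPKM in DE, MESO, NPC and NCSC. NAT10 thus had like FPKM in DE, MESO and NPC, though its hESC value differed between these tables. Its centred changes were -0.61 in DE and -0.69 in NPC. The lowest was that of MESO, -0.98, where the authors' q-value was 0.128. NOP2, a cytosine methyltransferase, could be read on its own only in the DE table, at 28.0 FPKM in hESC and 22.4 FPKM in DE. In the other tables its row is merged with that of its neighbour CHD4, a chromatin remodeler, and holds 112, 126 and 118 FPKM in hESC and 105, 88.3 and 105 FPKM in MESO, NPC and NCSC. Those values are not the level of NOP2 alone.

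The large-subunit assembly factors fell in NPC for 9 of 9 and in NCSC for 4 of 9, against 24.8% and 19.7% of loci. At an unadjusted p-value below 0.05, 8 of the 9 were lower in NCSC, against 26.8% of loci. PES1, BOP1 and WDR12 form the PeBoW complex, which is needed to mature the large-subunit RNA. BOP1 stood at 35.6, 37.4, 39.8 and 37.5 FPKM in hESC and at 21.3, 24.7, 7.01 and 9.52 FPKM in DE, MESO, NPC and NCSC. PES1 stood at 40.5, 50.7, 56.3 and 52.5 FPKM in hESC and at 34.6, 39.1, 17.0 and 25.7 FPKM in the derivatives. WDR12 stood at 26.1, 27.1, 31.7 and 29.8 FPKM in hESC and at 15.8, 16.3, 10.2 and 19.0 FPKM in the derivatives. The 3 partners thus fell by unequal amounts, with centred changes in NPC of -2.09 for BOP1, -1.41 for PES1 and -1.28 for WDR12. In NCSC only BOP1 passed (-1.65), while PES1 had a q-value of 0.0565 and WDR12 one of 0.14 in the authors' deposited table.

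The NOC proteins escort precursor subunits toward export. NOC2L, which pairs with NOC3L, went from 49.1 to 13.2 FPKM in NPC and from 46.5 to 16.5 FPKM in NCSC, and fell in both. NOC3L went from 24.9 to 10.2 FPKM in NPC and fell there, and went from 22.8 to 14.8 FPKM in NCSC (q = 0.137). WDR74, which works with the remodelling enzyme NVL, went from 51.0 to 12.7 FPKM in NPC and from 47.9 to 13.4 FPKM in NCSC and fell in both.

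NIP7, a factor that binds precursor RNA, went from 35.7 to 7.71 FPKM in NPC (q = 0.04) and from 33.3 to 8.96 FPKM in NCSC (q = 0.0698) by the authors' deposited tables. NIP7 was thus 4.62-fold and 3.71-fold lower with weaker test values than genes of like change. PPAN, a homolog of a yeast large-subunit factor, went from 31.8 to 8.32 FPKM in NPC (q = 0.0264) and from 30.2 to 13.6 FPKM in NCSC (q = 0.173). PPAN shares its row with P2RY11, with which it forms read-through RNA, in all 4 tables. RRP1B, a nucleolar protein that also has a role in splicing, had the smallest change of the 9 in NPC. It went from 25.6 to 13.5 FPKM in NPC (q = 0.00495) and from 23.8 to 14.5 FPKM in NCSC (q = 0.0435), and stood at 13.6 and 12.3 FPKM in DE and MESO.

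The small-subunit assembly factors fell in NPC for 5 of 5 and in NCSC for 4 of 5, against 24.8% and 19.7% of loci. RRP12 stood at 16.0, 21.8, 24.1 and 22.8 FPKM in hESC and at 7.54, 10.2, 3.77 and 5.47 FPKM in DE, MESO, NPC and NCSC. It was 6.39-fold lower in NPC and 4.17-fold lower in NCSC, and with a q-value of 0.0459 in MESO it passed in 3 of the authors' 4 deposited tables, as did POLR1B. WDR43, a factor of the complex that couples transcription with processing, went from 61.8 to 16.8 FPKM in NPC and from 57.3 to 24.7 FPKM in NCSC. UTP20 stood at 8.22, 7.48, 4.11 and 4.35 FPKM in DE, MESO, NPC and NCSC, against the hESC levels given above. Both fell in NPC and NCSC.

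NOC4L, the partner of NOP14 in the small-subunit precursor, went from 23.8 to 8.78 FPKM in NPC and from 22.6 to 8.22 FPKM in NCSC, and fell in both. TSR1, a late factor that resembles translational GTPases, went from 33.5 to 11.9 FPKM in NPC (q = 0.0249) and from 30.0 to 16.8 FPKM in NCSC (q = 0.123). In DE and MESO, TSR1 stood at 18.7 and 21.1 FPKM against 23.0 and 29.2 FPKM in hESC.

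By role, the median centred change in NPC ran from -1.72 for the nucleolar proteins over -1.55 for large-subunit factors, -1.46 for box C/D proteins, -1.32 for small-subunit factors and -1.06 for box H/ACA proteins to -0.86 for RNA polymerase I. The 2 base-modifying enzymes stood at -0.47. In NCSC the same order of roles gave -1.12, -0.87, -1.17, -1.13, -0.66 and -0.49, and -0.13 for the enzymes, which became 0.12 with hESC values of the other 3 tables. This median of 2 genes includes the row that NOP2 shares with CHD4, while hESC of the DE table holds NOP2 alone, at 28.0 FPKM. The plot of levels sets the 37 genes among all expressed symbols.

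**Figure D4:**
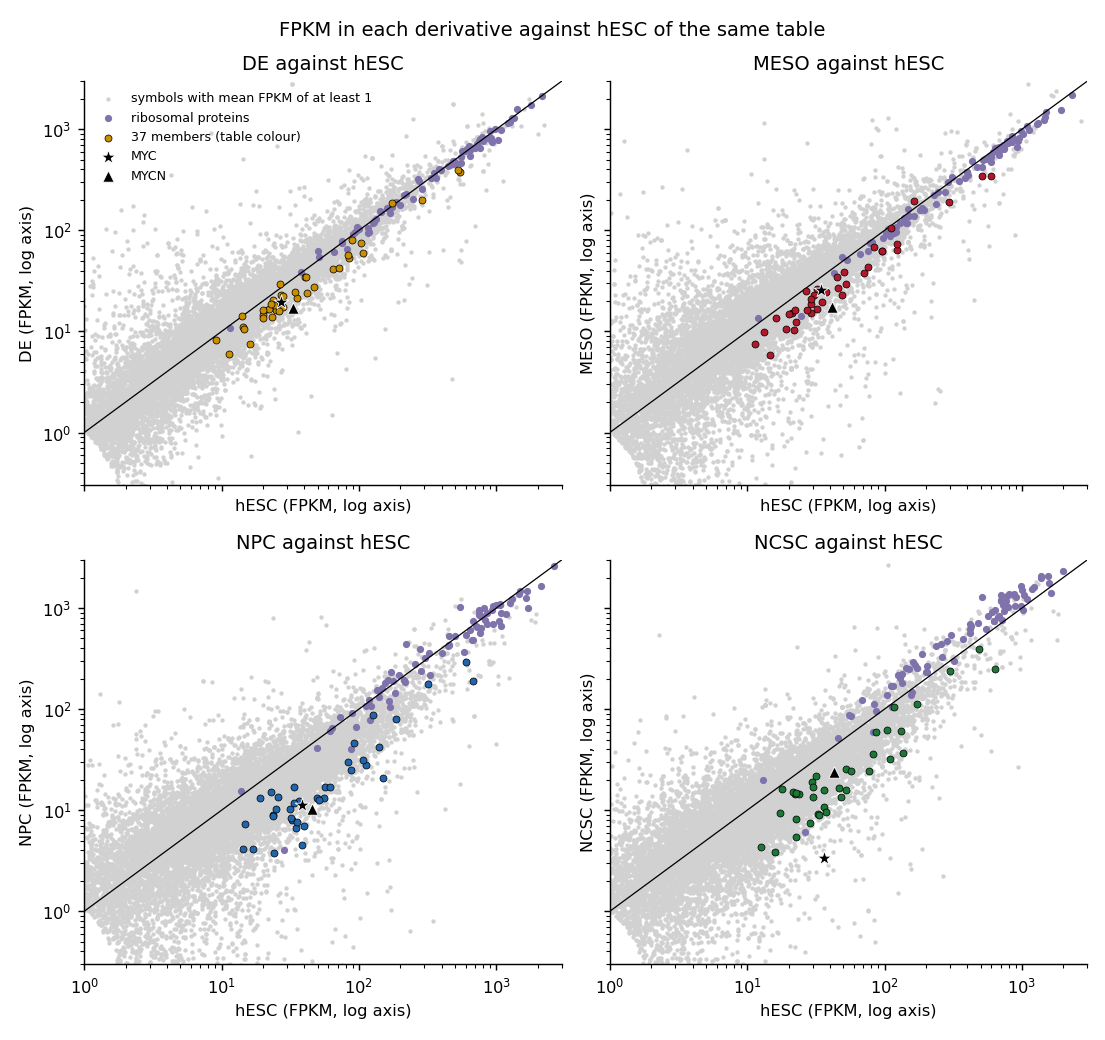
FPKM in each derivative (vertical log axis) against hESC of the same table (horizontal log axis) for symbols with a mean FPKM of at least 1, with the 37 genes, the cytosolic ribosomal proteins, MYC and MYCN marked. The 37 genes lie below the line of equality in NPC and NCSC, while most ribosomal proteins lie at or above it in NCSC.

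MYC and MYCN, the transcription factors often set beside these genes, were lowest in different derivatives. MYC stood at 27.0, 34.4, 38.4 and 36.3 FPKM in hESC of the DE, MESO, NPC and NCSC tables and at 19.7, 25.7, 11.3 and 3.39 FPKM in the derivatives. It fell in NPC and, further, in NCSC, with centred changes of -1.41 and -2.87. MYCN stood at 33.3, 41.4, 45.3 and 42.8 FPKM in hESC and at 17.2, 17.6, 10.3 and 24.0 FPKM in the derivatives. MYCN fell in NPC (-1.77) and in NCSC (-0.59, q = 0.0232), and its q-value in MESO was 0.0556 in the authors' deposited tables. NPC, where the 37 genes were lowest, thus had the lowest MYCN, and NCSC had the lowest MYC. With 4 derivatives no relation of these levels with the 37 genes was tested.

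MYCL1, the third of the family, went from 10.9 to 1.85 FPKM in MESO (q = 0.00155) and from 11.2 to 3.12 FPKM in NCSC and fell in both, and went from 11.9 to 9.16 FPKM in NPC. MAX, the partner that all 3 need to bind DNA, stood at 16.9, 20.6, 16.3 and 20.4 FPKM in DE, MESO, NPC and NCSC against 14.5, 16.3, 19.0 and 17.3 FPKM in hESC, and passed in no table. MXI1, which competes with MYC for MAX, rose in NPC from 3.37 to 11.8 FPKM and in NCSC from 3.11 to 14.1 FPKM. MXI1 also went from 3.17 to 11.0 FPKM in DE and from 2.79 to 8.12 FPKM in MESO. The authors' q-values there were 0.967 and 0.0876, so its higher level was not particular to the neural derivatives. MXD1, another such competitor, rose in MESO from 1.24 to 11.0 FPKM and in NCSC from 1.39 to 5.30 FPKM.

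Other genes of ribosome production were read from lists beyond the 37. Of 46 other factors of the small-subunit precursor, 40 fell in NPC and 27 in NCSC, and of 40 other large-subunit factors 28 and 20 fell. Over all loci tested 24.8% fell in NPC and 19.7% in NCSC, and 29% and 21.5% of those with a mean FPKM of at least 10. The median centred changes of the small-subunit list were -0.97 and -0.74 and, for the large subunit, -1.14 and -0.74. Examples are NOP16, which went from 49.1 to 5.02 FPKM in NPC, RRS1, from 50.4 to 6.10 FPKM, and the helicase gene DHX37, from 20.8 to 2.86 FPKM. In NCSC, NOL11 went from 76.7 to 14.8 FPKM and CEBPZ from 106 to 20.3 FPKM. In MESO 2 of the 40 large-subunit factors and none of the 46 small-subunit factors fell, while 5.37% of loci did. At an unadjusted p-value below 0.05, 5 of the 40 and 3 of the 46 were lower, against 10% of loci. The 2 that fell by q-value were MDN1, a giant remodelling ATPase, from 21.9 to 8.53 FPKM and SURF6 from 38.8 to 17.3 FPKM. In DE none of either list fell by q-value or by an unadjusted p-value below 0.05 in the authors' deposited table.

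Of 15 other subunits and factors of RNA polymerase I, several shared with other polymerases, 6 fell in NPC and 4 in NCSC, against 24.8% and 19.7% of loci, with median centred changes of -0.48 and -0.14. TWISTNB, a subunit of the polymerase stalk, went from 21.0 to 6.47 FPKM in NPC and from 20.1 to 5.92 FPKM in NCSC. CD3EAP, the partner of POLR1E, went from 14.1 to 1.02 FPKM in NPC with a q-value of 0.267 and from 13.1 to 1.63 FPKM in NCSC with a q-value of 0.0292, by the authors' deposited tables. Of 11 subunits of RNA polymerase III, which makes 5S ribosomal RNA, 5 fell in NPC and 3 in NCSC, against the same 24.8% and 19.7% of loci. POLR3G, the form of its subunit known from stem cells, fell from 33.7 to 1.06 FPKM in NPC. It also fell in MESO, from 26.8 to 3.21 FPKM, and in NCSC, from 29.2 to 4.81 FPKM. Its counterpart POLR3GL rose in NCSC from 5.61 to 14.5 FPKM.

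Among 10 snoRNP assembly factors 7 fell in NPC and 6 in NCSC, against 24.8% and 19.7% of loci, such as the ATPase gene RUVBL1, from 99.9 to 36.9 FPKM in NPC. Among 14 genes of the RNA exosome, which trims the precursor, 6 fell in NPC and 4 in NCSC, beside 24.8% and 19.7% of loci, such as EXOSC5, from 40.9 to 8.44 FPKM in NPC.

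The cytosolic ribosomal proteins, the building blocks that the 37 gene products assemble, had medians below 0 in DE and MESO and above 0 in NCSC. Of 78 such genes, 55 had a centred change below 0 in DE and 73 in MESO, with medians of -0.08 and -0.23, and none passed in either by the authors' q-values or at an unadjusted p-value below 0.05. In NPC 22 were below 0, and 4 fell and 1 rose, against 24.8% and 12% of loci. In NCSC 2 were below 0, 1 fell and 12 rose, while 19.7% of loci fell and 10.2% rose. At an unadjusted p-value below 0.05 the 12 became 28, and the share of loci higher at that threshold was not counted. The median centred change was 0.19 in NPC, which turned to -0.07 without centring, and 0.75 in NCSC, which was 0.53 without centring. RPS4X rose from 543 to 1016 FPKM in NPC and from 509 to 1278 FPKM in NCSC. RPS26 fell from 28.3 to 4.01 FPKM in NPC and from 26.5 to 6.04 FPKM in NCSC. Ribosomal protein genes have many near-identical copies, so single values are uncertain. The plot of lists sets these medians side by side.

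**Figure D5:**
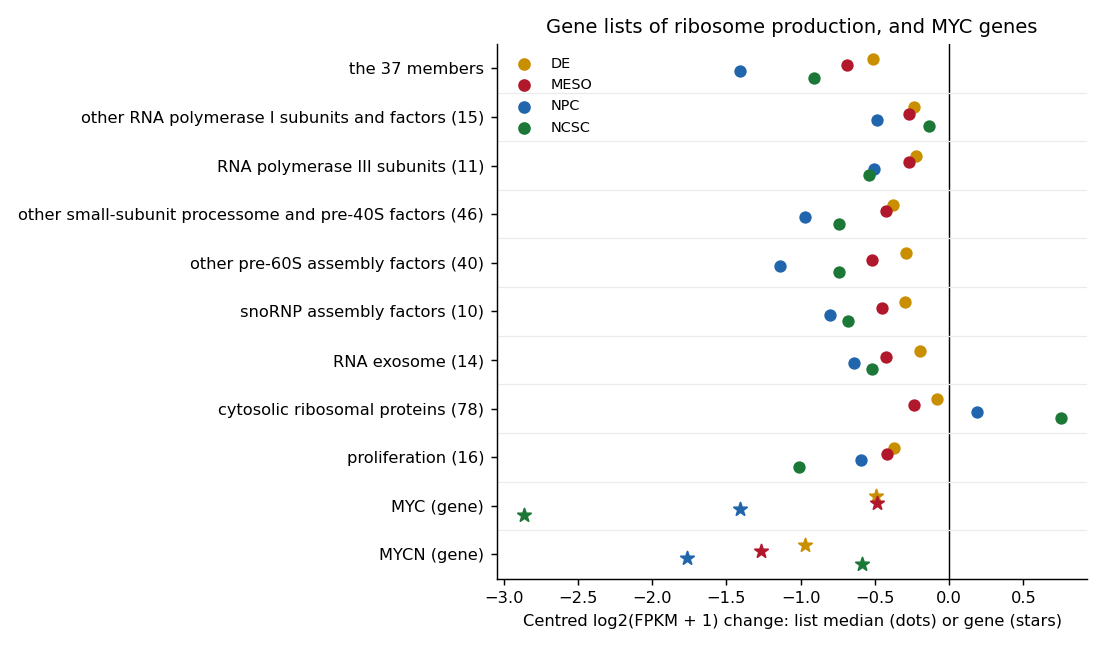
Median centred change in log2(FPKM + 1) of the 37 genes and of other lists, with the number of genes in parentheses, and the change of MYC and MYCN (stars), in each derivative. The ribosomal proteins lie at 0.75 in NCSC, to the right of 0, where the median of the 37 genes is -0.91.

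Genes of proliferation moved with the 37 genes in part. Of 16 such genes 9 fell in NPC and 13 in NCSC, against 24.8% and 19.7% of loci, with median centred changes of -0.60 and -1.01. In NCSC 1, TYMS, rose, while 10.2% of loci did. In MESO 1 fell, BUB1, from 85.8 to 40.8 FPKM, and 1 rose, TYMS, from 44.8 to 115 FPKM. Of loci 5.37% fell and 9.05% rose there, and the list's median was -0.42. In DE none of the 16 passed by q-value or by an unadjusted p-value below 0.05, and the median was -0.37. MCM5, a subunit of the replicative helicase, went from 126 to 43.0 FPKM in NPC and from 119 to 20.6 FPKM in NCSC. MKI67 stood at 24.9 FPKM in hESC and 33.1 FPKM in NPC, without passing, and fell in NCSC from 23.1 to 14.3 FPKM. The summed level of the 16 genes went from 1721 to 1002 FPKM in NPC and from 1608 to 698 FPKM in NCSC. The part of proliferation in the lower levels of the 37 genes was not tested.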

How the data were processed

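Poly-A RNA of 10 libraries was measured, and the authors deposited 4 tables, 1 per derivative, with an FPKM for hESC and an FPKM for the derivative, while the labels give 2 libraries per cell type. No source used here says how these were combined. The signed score, the p-value and the q-value of each locus are the authors' too, per the file headers. Cufflinks 2.2.1, featureCounts, Subread 1.5.2 and TopHat2 2.0.13 and the build hg19 appear in the submitters' processing notes. What each did, and the scaling, is not given in the sources used here.

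Rows were split at commas in the gene column and limited to chromosomes 1 to 22 and X, and a symbol with several rows kept that of highest mean FPKM. Changes used a pseudocount of 1, which understates changes of low genes. A locus whose score was 0 and whose p-value was 1 counted as untested. The depth is unknown. No test was run on the tables, which hold 1 value per cell type. The centring was tested on simulated data. Python 3.11.15, pandas 2.3.3, numpy 2.4.6 and matplotlib 3.10.9 were used.

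The members and lists were chosen with earlier results of these data known. Any member could be named. MYC, MYCN, MYCL1 and MAX were always named. Of each other list at most 2 more genes per table were named, those that passed with the largest centred change, or the 2 highest where none passed. MSX1, TFAP2A, ZIC1, FOXD3, PAX3, SNAI2, CHD4 and MKI67 were named after their values were seen. So were TYMS in NCSC, MXD1 in NCSC, CD3EAP in NPC, and MXI1 in DE and MESO. A score was called small where the log2 ratio of FPKM divided by the score was over 3 times the median of that quotient at a mean FPKM of at least 20, a rule made after seeing the data. Alternatives were pseudocounts of 0.1 and 5, other centrings, quantile normalization, hESC values of the other tables, filters and thresholds.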

Additional observations from a re-analysis of the deposited data

How the results depend on the processing

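No called change of the 37 genes turned sign under any alternative run, and 7 uncalled values of 148 (37 genes in 4 tables) did. The median centred changes of the 37 genes, -0.51 in DE, -0.69 in MESO, -1.41 in NPC and -0.91 in NCSC, moved but stayed below 0. In that order they were -0.53, -0.71, -1.45 and -0.93 with a pseudocount of 0.1 and -0.44, -0.64, -1.14 and -0.82 with one of 5. Without centring they were -0.46, -0.61, -1.67 and -1.13, and centred on all symbols -0.46, -0.61, -1.66 and -1.12. Quantile normalization gave -0.57, -0.75, -1.26 and -0.84. With hESC values of the other 3 tables they were -0.78, -0.63, -1.30 and -0.81, so DE and MESO change places. Centring on symbols with a mean FPKM of at least 10, added after seeing the data, gave -0.53, -0.70, -1.30 and -0.85. Also added were leaving out members with small scores (-0.50 in DE, -0.95 in NCSC) and summing the rows of a symbol (-0.92 in NCSC), and leaving out merged loci gave -0.93 in NCSC.

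At an unadjusted p-value below 0.05 the members lower in MESO went from 2 to 9. The other counts over all 37 stayed within 1.5 times. Counts of smaller groups moved further at that threshold. They went from 4 to 8 for large-subunit factors lower in NCSC, from 2 to 4 for RNA polymerase I in NPC, from 0 to 3 for nucleolar proteins in MESO, from 1 to 2 for small-subunit factors in MESO and from 0 to 1 for box H/ACA proteins, base-modifying enzymes and large-subunit factors in MESO and for the enzymes in NCSC. Of the other lists, the lower counts in MESO went from 2 to 5 (large subunit), 0 to 3 (small subunit) and 1 to 4 (proliferation), and 12 risen ribosomal proteins in NCSC became 28. RNA polymerase III subunits went from 0 to 1 lower in DE and from 0 to 1 higher in NPC. The MYC family went from 1 to 2 lower and from 1 to 3 higher in MESO, and from 1 to 3 higher in NPC. For higher RNAs the share of all loci at that threshold was not counted. MYC itself kept its direction under the alternatives run. No paired analysis was possible because each table holds 1 value per cell type, and replicates were not left out in turn for the same reason. The depth of the libraries is unknown.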
